A study of Mus musculus with 6 samples.

Results

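The BMP-hepcidin axis is the signalling route by which the liver sets the output of its iron hormone. Its 10 genes, Bmp2, Bmp6, Hamp, Hamp2, Id1, Smad6, Smad7, Tfr2, Hfe and Tmprss6, were chosen by name as known parts of this route, with earlier results of the comparison below in view. They are 10 of the 17119 gene symbols in the count table, and all 10 were among the 12706 genes with enough counts to be tested. Because the genes were chosen with those results known, their fold changes and p-values are given as a description. The libraries came from whole liver of mice kept for 12 weeks on a diet labelled HFHCD, 3 per group. The wild-type group (WT) was Clec4f-iCre;Cebpb+/+ and the heterozygous group (Hete) was Clec4f-iCre;Cebpbfl/+, so every mouse carried the iCre transgene, and no mouse without it was compared. In the liver, Clec4f is a Kupffer cell gene, so the floxed Cebpb allele is targeted in liver macrophages, whereas the ligands and targets described here are made mostly by other cells. The genotype labels of replicates 2 and 3 in both groups write the driver as Clec5f and Clec6f, and the name in the series design was followed. Age, strain and sex are not in the labels. Nothing in them says that the 3 libraries of a group came from separate mice, so the p-values reflect only the spread between these samples, which may be technical.

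As background, sinusoidal endothelial cells make the ligands BMP2 and BMP6, and iron loading raises BMP6 in particular. Hepatocytes bind these ligands through BMP receptors together with the co-receptor hemojuvelin, and the receptors phosphorylate SMAD proteins that join SMAD4 on the promoters of Hamp, Id1, Smad6 and Smad7. Hamp encodes hepcidin, the hormone that removes the iron exporter ferroportin from cell surfaces. HFE and TFR2 report circulating transferrin-bound iron to this pathway, TMPRSS6 is a protease that cleaves hemojuvelin and lowers hepcidin, and SMAD6 and SMAD7 are inhibitors induced by the signal itself. Inflammation raises Hamp by a separate route, through IL-6 and STAT3.

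The promoters of the Hamp genes are shown because they differ at a motif of the BMP route. Mouse Hamp and its close copy Hamp2 lie on chromosome 7, on the minus strand. The 250 bases before each annotated start are printed 5′ to 3′ from RefSeq (GRCm38.p6, an older build than the GRCm39 of the counts), Hamp at chr7:30944030-30944279 and Hamp2 at chr7:30924182-30924431. Capitals mark GGCGCC, the core of a BMP response element, and TTCNNNGAA, the pattern bound by STAT proteins.
Hamp: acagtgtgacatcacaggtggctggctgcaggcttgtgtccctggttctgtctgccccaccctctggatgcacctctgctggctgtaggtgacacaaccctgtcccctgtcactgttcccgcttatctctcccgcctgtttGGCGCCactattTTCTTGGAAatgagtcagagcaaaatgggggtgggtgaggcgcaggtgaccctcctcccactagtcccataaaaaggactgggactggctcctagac
Hamp2: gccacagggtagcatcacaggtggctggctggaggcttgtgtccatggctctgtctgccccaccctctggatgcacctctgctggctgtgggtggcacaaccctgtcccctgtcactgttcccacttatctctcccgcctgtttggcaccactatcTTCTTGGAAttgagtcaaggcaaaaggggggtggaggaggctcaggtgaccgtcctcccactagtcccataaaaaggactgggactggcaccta
In Hamp, GGCGCC stood at −109 to −104 and TTCTTGGAA at −97 to −89, counted back from the annotated start. Hamp2 held the same TTCTTGGAA at −94 to −86 and no GGCGCC. The aligned Hamp2 bases at that place were GGCACC, the substitution G4A, with positions counted from 1 at the first base of the Hamp motif. Over the whole window, 227 of 247 aligned bases were identical (91.9%). The motifs are not rare: searched on both strands, GGCGCC was present in 11.9% and TTCNNNGAA in 8.3% of 32851 RefSeq promoter windows of 300 bases (250 before and 50 after the start). A match is a description of letters and not evidence of binding.

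The promoter of the inhibitor Smad6 is shown because it held a palindrome bound by C/EBP proteins, TTGCGCAA, and one bound by SMAD proteins, GTCTAGAC. It lies at chr9:64022060-64022309 on the minus strand (GRCm38.p6), with TTGCGCAA at −39 to −32 and GTCTAGAC across the start, from −4 to 4. The first 4 letters of GTCTAGAC close the printed sequence in capitals.
Smad6: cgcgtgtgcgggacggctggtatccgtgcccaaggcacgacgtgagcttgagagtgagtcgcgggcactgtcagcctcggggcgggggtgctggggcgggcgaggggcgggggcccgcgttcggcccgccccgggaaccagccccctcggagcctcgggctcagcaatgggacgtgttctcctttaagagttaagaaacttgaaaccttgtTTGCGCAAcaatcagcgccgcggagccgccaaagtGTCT
TTGCGCAA was present in 0.183% and GTCTAGAC in 0.213% of the same windows. TTGCNNCAA, a longer pattern with another spacing that TTGCGCAA cannot match, was in 2.08% of windows and in none of the member promoters searched. The windows of Bmp6, Hfe and Tfr2 held none of the 5 motifs searched, which says only that these letters are not there. The Smad6 window was picked after this search, and its matches are likewise not evidence of binding. Promoters of Bmp2, Id1, Smad7 and Tmprss6 were not used here.

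Of the 10 genes, 0 passed the threshold of an adjusted p of 0.05 (edgeR quasi-likelihood test, Benjamini-Hochberg over all tested genes), where 0.582% of all tested genes passed. With an unadjusted p under 0.05 there was 1 of 10, Bmp2, beside 13.2% of all tested genes. Bmp2 was also the only 1 of the 10 whose groups did not overlap, beside 18.4% of all tested genes in either direction and 7.05% with Hete higher. The log2 fold changes, Hete over WT, were above 0 for 5 genes and below 0 for the other 5, with a median of −0.01 beside 0.00 over all tested genes. The members' counts were thus near those over all tested genes.

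**Figure D1:**
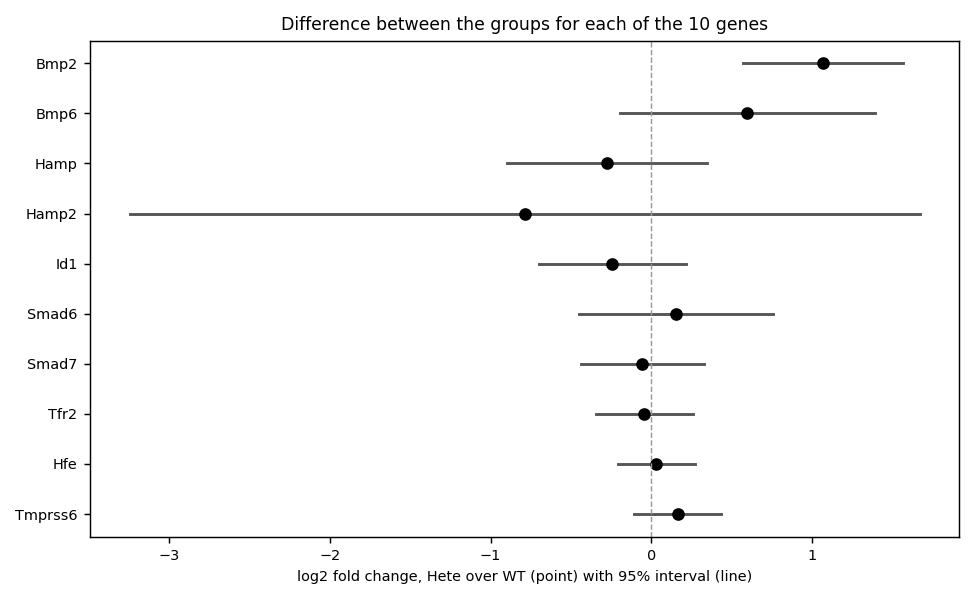
log2 fold change (Hete over WT) of each of the 10 genes as a point, with its 95% interval from the edgeR fit as a line and a dashed line at 0. The interval of Bmp2 (0.57 to 1.57) alone lies wholly on one side of 0, and that of Hamp2 (−3.25 to 1.67) is the widest.

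Bmp2, the more constitutive of the endothelial ligands, was the member with the clearest separation. Its level in CPM (TMM-scaled counts per 1000000 counts) was 7.01, 5.98 and 8.92 in WT replicates 1, 2 and 3, and 14.2, 19.6 and 12.3 in Hete replicates 1, 2 and 3. Every Hete library was above every WT library. The means were 7.31 ± 1.49 CPM (SD, n = 3) in WT and 15.3 ± 3.82 CPM (SD, n = 3) in Hete. The fitted log2 fold change was 1.07 ± 0.22 (SE), a 2.10-fold higher level, with an edgeR adjusted p of 0.0639, which misses the threshold. By unadjusted p the gene ranked 181 of 12706. The call depended on the method: the adjusted p was 0.00129 with DESeq2 and 0.0275 in edgeR with no filter on low counts, and over 16 alternatives it ran from 0.00129 to 0.223, while the log2 fold change stayed between 0.84 and 1.24.

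Bmp6, the ligand that follows iron load, was low in all libraries. Its level was 1.83, 3.10 and 5.42 CPM in WT and 5.88, 5.03 and 4.82 CPM in Hete, from between 30 and 101 counts per library. WT replicate 3 lay inside the Hete range, so the groups overlapped, and the spread was wider in WT. The log2 fold change was 0.60 ± 0.35 (SE; 95% interval −0.20 to 1.39), with an edgeR adjusted p of 0.543. It was 0.32 without WT replicate 1 and 1.08 without WT replicate 3. Exons of Txndc5, on the opposite strand, overlap those of Bmp6, and Txndc5 was far more abundant (171 to 190 CPM in WT, 179 to 231 CPM in Hete). Whether the counting used strand is not stated, so the Bmp6 values are uncertain.

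In whole liver, fewer cells of a type and less RNA per cell cannot be told apart, so the ligands were set beside markers of the cells that make them. The summed level of 14 sinusoidal endothelial markers (among them Stab2, Lyve1 and Kdr) was 418 to 481 CPM in WT and 439 to 577 CPM in Hete, and these ranges overlapped. Of the 14 markers, 0 passed the threshold, 9 had a log2 fold change above 0, and the median was 0.15. The median lay between 0.08 and 0.22 with each library left out, and was −0.02 without WT replicate 1 and Hete replicate 2 together. The groups did not overlap for 4 of the 14 (18.4% of all tested genes), 3 of them with Hete higher (7.05% of all tested genes). Per 100 CPM of these markers, Bmp2 stood at 1.68, 1.40 and 1.85 CPM in WT and at 3.22, 3.40 and 2.59 CPM in Hete. The groups stayed apart on this scale, with a mean log2 difference of 0.90 (1.87-fold) that lay between 0.79 and 1.02 when each library was left out. Bmp6 per 100 CPM of markers was 0.438, 0.725 and 1.13 CPM in WT and 1.34, 0.872 and 1.02 CPM in Hete, which overlapped. Markers of the central vein endothelium, another vascular bed, summed to 18.1 to 26.2 CPM in WT and 20.9 to 47.1 CPM in Hete, which overlapped, with the highest value in Hete replicate 2, the library with the highest Bmp2. Of these 6 markers 0 passed the threshold and all 6 had a log2 fold change above 0, with a median of 0.43. The highest sums, in WT replicate 1 and Hete replicate 2, were led by Thbd, thrombomodulin. It was at 15.7, 3.75 and 6.07 CPM in WT and 3.20, 24.9 and 5.68 CPM in Hete. The overlap of the sums therefore says little about the other markers, whose log2 fold changes ran from 0.24 (Kit) to 1.15 (Cdh13). Cdh13, a cadherin, was at 1.16, 2.18 and 2.13 CPM in WT and 4.31, 4.78 and 3.15 CPM in Hete (log2 fold change 1.15 ± 0.31, SE; edgeR adjusted p = 0.128). It was the only 1 of the 6 whose groups did not overlap, with Hete higher, beside 7.05% of all tested genes. The part of cell composition in the Bmp2 difference was not tested.

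The iron sensors of the hepatocyte surface were among the steadiest members. Tfr2, the hepatic transferrin receptor homologue, stood at 592, 496 and 568 CPM in WT and at 494, 615 and 499 CPM in Hete. The groups interleaved, with Hete replicate 2 the highest and Hete replicate 1 the lowest. The log2 fold change of Tfr2 was −0.04 ± 0.13 (SE; 95% interval −0.35 to 0.26). Hfe, the MHC-class-I-like protein mutated in classical haemochromatosis, was at 53.4, 50.1 and 58.1 CPM in WT and 57.5, 52.6 and 54.9 CPM in Hete. Its 6 values lay in a narrow band in which the groups interleaved, with a log2 fold change of 0.03 ± 0.11 (SE; 95% interval −0.21 to 0.27). Tmprss6 was at 418, 502 and 487 CPM in WT and 524, 557 and 494 CPM in Hete, where WT replicate 2 exceeded Hete replicate 3. For Tmprss6 the log2 fold change was 0.16 ± 0.12 (SE; 95% interval −0.11 to 0.44), with an edgeR adjusted p of 0.650, and it was 0.11 without WT replicate 1. For Tfr2 and Hfe the edgeR adjusted p was 0.948 and 0.952, and a miss of the threshold does not show equal levels; the intervals give the sizes these libraries allow.

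The BMP-SMAD target genes Id1, Smad6 and Smad7 did not separate the groups. Id1, an inhibitor of basic helix-loop-helix factors and the usual readout of BMP signalling in hepatocytes and endothelium, was at 11.5, 12.9 and 9.41 CPM in WT and 10.3, 7.21 and 11.0 CPM in Hete. The lowest value was Hete replicate 2, the library with the highest Bmp2, and the groups overlapped. Its log2 fold change was −0.24 ± 0.20 (SE; 95% interval −0.70 to 0.21), with an edgeR adjusted p of 0.708, and it was −0.08 without Hete replicate 2 and −0.13 without WT replicate 2. Smad6 was at 4.88, 10.4 and 6.29 CPM in WT and 8.62, 7.93 and 7.51 CPM in Hete, all 3 Hete values falling between WT replicates 3 and 2. For Smad6 the log2 fold change was 0.15 ± 0.27 (SE; 95% interval −0.45 to 0.76), and it was −0.04 without WT replicate 1. Smad7 was at 12.3, 17.3 and 13.8 CPM in WT and 12.4, 13.4 and 16.0 CPM in Hete. Its groups interleaved, with a log2 fold change of −0.06 ± 0.17 (SE; 95% interval −0.44 to 0.33), which was 0.10 without WT replicate 2 and 0.04 without Hete replicate 1. The edgeR adjusted p was 0.895 for Smad6 and 0.948 for Smad7.

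**Figure D2:**
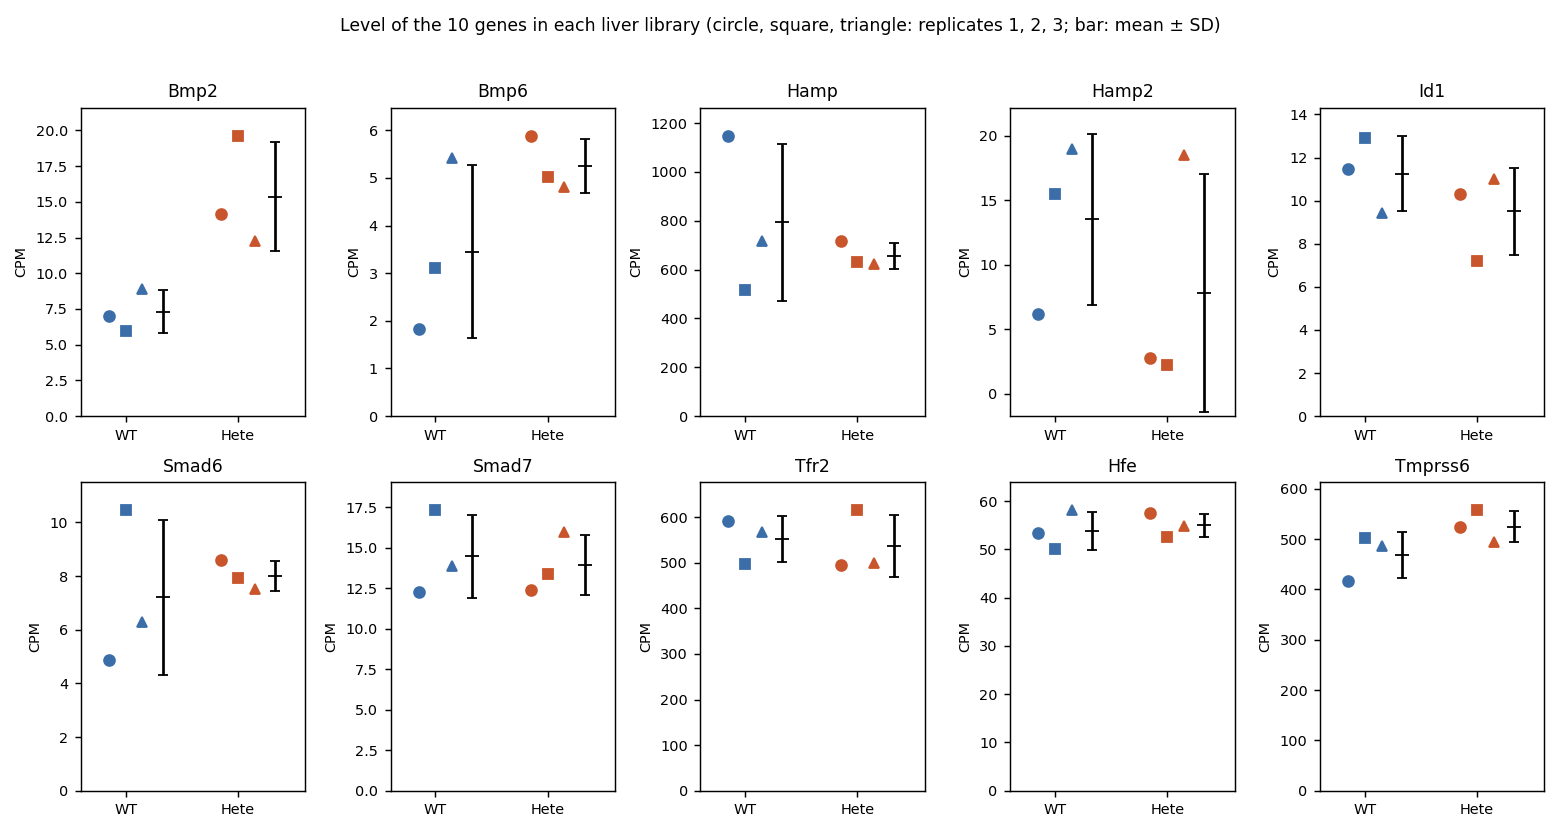
Level (CPM, TMM-scaled, linear axes) of each of the 10 genes in the 6 libraries, with blue points for WT, orange points for Hete, marker shape for the replicate number and black bars for mean ± SD of 3 libraries. Bmp2 has all Hete points (12.3 to 19.6 CPM) above all WT points (5.98 to 8.92 CPM), and the points of the other 9 genes overlap between groups.

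Hamp, the hepcidin gene at the end of the route, overlapped between groups. Its level was 1148, 518 and 718 CPM in WT and 716, 631 and 621 CPM in Hete. WT replicate 1 was the highest and WT replicate 2 the lowest, with all 3 Hete libraries between them. The means were 794 ± 322 CPM (SD, n = 3) and 656 ± 52.3 CPM (SD, n = 3). The log2 fold change was −0.28 ± 0.27 (SE; 95% interval −0.90 to 0.35), with an edgeR adjusted p of 0.761. Its sign rested on WT replicate 1, since without that library the log2 fold change was 0.11, with an edgeR adjusted p of 0.875.

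WT replicate 1 was also the library with the highest acute phase transcripts, the inflammation-induced secretory products of hepatocytes. The summed level of 15 acute phase genes was 60807, 21100 and 29646 CPM in WT and 18390, 30465 and 19204 CPM in Hete. Saa1, serum amyloid A, was at 2428, 253 and 373 CPM in WT and 84.4, 371 and 107 CPM in Hete. Saa2 was at 2225 CPM and Lcn2, the siderophore-binding lipocalin, at 498 CPM in WT replicate 1, against at most 201 CPM and 63.2 CPM in any other library. Of the 15 genes 0 passed the threshold and all 15 had a log2 fold change below 0, with a median of −0.68, which was −0.17 without WT replicate 1. Hete replicate 2 had the highest acute phase sum of its group, and its Hamp level (631 CPM) was the middle value of that group. The part of inflammation in the Hamp values was not tested.

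Hamp2, the copy whose peptide is not regarded as an iron regulator, varied more between libraries than any other member. It was at 6.16, 15.5 and 18.9 CPM in WT and at 2.80, 2.24 and 18.5 CPM in Hete. Hete replicate 3 lay with WT replicates 2 and 3, and WT replicate 1 lay nearer to Hete replicates 1 and 2, so the split did not follow genotype. The log2 fold change was −0.79 ± 0.96 (SE; 95% interval −3.25 to 1.67), with an edgeR adjusted p of 0.825. Single libraries set its size, which was −2.42 without Hete replicate 3, −0.37 without Hete replicate 1, −0.35 without Hete replicate 2 and −0.47 without WT replicate 3. As a share of the counts of both Hamp genes, Hamp2 took 0.534% (95% exact binomial interval 0.435% to 0.648%), 2.91% (2.59% to 3.26%) and 2.57% (2.31% to 2.85%) in WT. In Hete the shares were 0.389% (0.287% to 0.515%), 0.354% (0.249% to 0.487%) and 2.89% (2.58% to 3.22%). These intervals cover counting error only, and they leave a wide gap between a low set of 3 libraries and a high set of 3 that each hold both genotypes. Over their spliced transcripts Hamp and Hamp2 were identical at 388 of 410 aligned bases (94.6%), with a longest identical run of 87 bases, so the counting could assign reads of one copy to the other or discard them, and both values are uncertain. Exons of Gm44662, on the opposite strand, overlap those of Hamp2 as well.

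**Figure D3:**
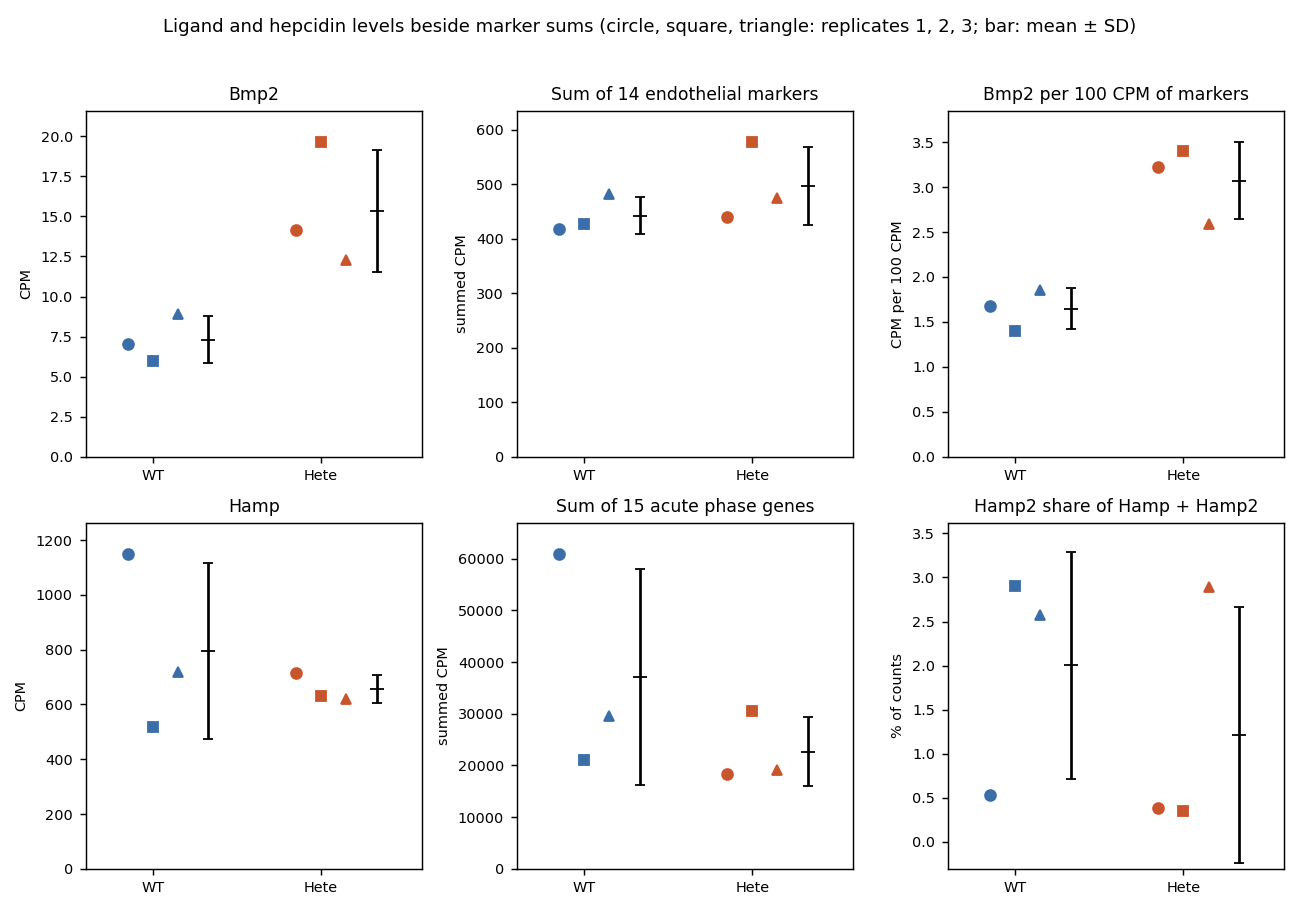
Values in the 6 libraries (blue WT, orange Hete, marker shape for the replicate number, black bars mean ± SD, linear axes) of Bmp2, the summed endothelial markers and Bmp2 per 100 CPM of those markers in the upper row, and of Hamp, the summed acute phase genes and the Hamp2 share of both Hamp genes' counts in the lower row. WT replicate 1 is highest for both Hamp (1148 CPM) and the acute phase sum (60807 CPM), and the Hamp2 share splits 3 libraries at 0.354% to 0.534% from 3 at 2.57% to 2.91%.

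Per kilobase of exon, the order of the 10 genes in WT ran from Hamp at 1938 ± 786 CPM per kb (SD, n = 3) to Bmp6 at 0.885 ± 0.466 CPM per kb (exon lengths from GENCODE M21). After Hamp came Tmprss6 (139.5 ± 13.3 CPM per kb) and Tfr2 (127 ± 11.5 CPM per kb), neighbours that did not differ beyond their spread. Hamp2 (23.2 ± 11.3 CPM per kb) and Hfe (15.1 ± 1.13 CPM per kb) likewise overlapped, and Id1 followed at 9.71 ± 1.51 CPM per kb. At the low end stood Smad7 at 3.20 ± 0.570, Smad6 at 2.25 ± 0.903 and Bmp2 at 2.06 ± 0.419 CPM per kb, where neither Smad7 and Smad6 nor Smad6 and Bmp2 differed beyond their spread. In Hete the means were 4.32 ± 1.07 for Bmp2, 3.08 ± 0.411 for Smad7 and 2.50 ± 0.174 CPM per kb for Smad6, and Bmp2 and Smad7 did not differ beyond their spread. Bmp6 had the lowest mean in both groups.

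The wider pathway was read from lists of named genes. Of the list of BMP ligands and antagonists other than the members, 13 of 18 genes were tested and 0 passed the threshold, with a median log2 fold change of 0.18. That median rested on single libraries: it was −0.15 without Hete replicate 2, 0.01 without Hete replicate 1, 0.02 without WT replicate 3, 0.04 without WT replicate 1 and 0.45 without WT replicate 2. Gdf2, which encodes the circulating ligand BMP9 made by stellate cells, was at 21.0, 32.6 and 35.1 CPM in WT and 19.8, 21.4 and 23.7 CPM in Hete, which overlapped, with a log2 fold change of −0.45 ± 0.19 (SE; edgeR adjusted p = 0.352). Stellate cell markers summed to 500 to 642 CPM in WT and 351 to 478 CPM in Hete without overlap. In WT the sum was led by Dcn, Col3a1 and Col1a1, at means of 244, 99.0 and 77.9 CPM. Of the 9 markers 0 passed the threshold and 7 were below 0, with a median of −0.36. The log2 fold change was lowest for Col3a1 (−1.10) and Col1a1 (−1.03), followed by Pdgfrb, Dcn, Hgf and Reln. It was −0.01 for Des, 0.14 for Lrat and 0.21 for Rgs5. The part of stellate cells in the Gdf2 values was not tested. Inhba, the activin A subunit, was at 6.16, 6.47 and 4.93 CPM in WT and 13.5, 13.0 and 6.31 CPM in Hete, where Hete replicate 3 lay inside the WT range. Its log2 fold change was 0.90 ± 0.29 (SE; edgeR adjusted p = 0.199), and 1.18 (adjusted p = 0.0436) without that library. Fst, the activin-binding antagonist follistatin, had a log2 fold change of 0.74 ± 0.36 (SE; edgeR adjusted p = 0.439), which was 0.39 without Hete replicate 1. Fstl1, a secreted follistatin-like protein, was at 10.1, 11.2 and 12.3 CPM in WT and 5.59, 5.21 and 9.0 CPM in Hete. Its groups did not overlap, with a log2 fold change of −0.76 ± 0.23 (SE; edgeR adjusted p = 0.165). Fstl1 was the only 1 of the 13 tested genes of this list without overlap, beside 18.4% of all tested genes. The erythroid regulator Erfe had at most 1 count in any library, and Bmp10 at most 14, so neither was tested.

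Among BMP receptors and co-receptors, 13 of 14 genes were tested and 0 passed the threshold, with a median of −0.10. The groups did not overlap for 3 of the 13 (Acvrl1, Acvr1 and Acvr2a), beside 18.4% of all tested genes. Acvrl1 encodes ALK1, the endothelial receptor of BMP9. It was at 6.89, 10.9 and 9.47 CPM in WT and 4.25, 4.30 and 5.45 CPM in Hete, and the groups did not overlap. For Acvrl1 the log2 fold change was −0.96 ± 0.22 (SE), with an adjusted p of 0.0869 in edgeR and 0.00938 in DESeq2. Acvr1 encodes ALK2, a type I receptor through which BMP6 signals in hepatocytes, and had a log2 fold change of −0.37 ± 0.13 (SE; edgeR adjusted p = 0.253). For Acvr2a, a type II receptor, it was 0.37 ± 0.13 (SE; edgeR adjusted p = 0.244), and for Acvr1b, the activin receptor ALK4, −0.35 ± 0.17 (SE; edgeR adjusted p = 0.430), which was −0.18 without WT replicate 1. Hjv, hemojuvelin, was at 71.0, 89.9 and 80.4 CPM in WT and 93.4, 81.2 and 98.9 CPM in Hete, an overlap with a log2 fold change of 0.18 ± 0.13 (SE).

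Among SMADs and other BMP target genes, 12 of 15 were tested and 0 passed the threshold, with a median of 0.06. The groups did not overlap for 2 of the 12, Id4 and Atoh8, both with Hete higher. Over all tested genes the share was 18.4% in either direction and 7.05% with Hete higher. Id4, a relative of Id1, was at 0.915, 1.20 and 0.876 CPM in WT and 2.56, 3.09 and 1.78 CPM in Hete. These groups did not overlap, and the log2 fold change was 1.30 ± 0.33 (SE), with an adjusted p of 0.110 in edgeR and 0.0390 in DESeq2. Atoh8, a transcription factor that responds to BMP signalling and acts on Hamp, was at 33.8, 42.1 and 41.4 CPM in WT and 56.0, 45.5 and 49.3 CPM in Hete. Its groups did not overlap either, with a log2 fold change of 0.36 ± 0.13 (SE; edgeR adjusted p = 0.254). Id3, another BMP target, was at 44.9, 53.5 and 44.5 CPM in WT and 32.1, 45.2 and 42.6 CPM in Hete, with a log2 fold change of −0.25 ± 0.15 (SE; edgeR adjusted p = 0.543), which was −0.10 without Hete replicate 1. Smad1, a receptor-activated SMAD of this pathway, had a log2 fold change of −0.41 ± 0.23 (SE; edgeR adjusted p = 0.513). It was −0.08 without WT replicate 1, the library in which Smad1 was at 23.8 CPM against 12.9 and 14.9 CPM in the other WT libraries. Smad3, which serves the TGF-beta and activin branch, had one of 0.46 ± 0.21 (SE; edgeR adjusted p = 0.397), or 0.27 without Hete replicate 2. Known targets of BMP signalling thus lay on both sides of 0.

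Of 20 tested genes of iron transport and storage, 1 passed the threshold, beside 0.582% of all tested genes, and the list's median was −0.07. The groups did not overlap for 3 of the 20 (Hmox1, Slc39a8 and Slc11a2), beside 18.4% of all tested genes. Hmox1, heme oxygenase 1, which frees iron from haem and is abundant in macrophages, fell from 56.5, 82.5 and 51.9 CPM in WT to 23.1, 26.3 and 26.6 CPM in Hete. The groups did not overlap, and the log2 fold change was −1.33 ± 0.18 (SE), 2.51-fold lower, with an edgeR adjusted p of 0.0308. That call was made in 10 of 16 alternatives, whose adjusted p ran from 1.28e-07 to 0.180. Among the libraries left out in turn, it was lost without WT replicate 1 (adjusted p = 0.0521), Hete replicate 1 (0.18) or Hete replicate 2 (0.178). Markers of Kupffer cells were also lower in Hete, summing to 636 to 1099 CPM in WT and 314 to 350 CPM in Hete. Of these, 10 of 10 log2 fold changes were below 0 (median −1.21), 2 of them (C1qa and C1qb) past the threshold, beside 0.582% of all tested genes. Markers of monocytes and other leukocytes summed to 245 to 416 CPM in WT and 96.2 to 124 CPM in Hete. They showed the same pattern, with 10 of 10 below 0 (median −1.22) and 2 (Lyz2 and Ccr2) past the threshold. The part of these cells and of Kupffer cells in the Hmox1 difference was not tested. Slc40a1, ferroportin, the target of hepcidin, was at 83.6, 133 and 108 CPM in WT and 105, 88.6 and 83.1 CPM in Hete, with a log2 fold change of −0.23 ± 0.17 (SE; edgeR adjusted p = 0.657), which was −0.05 without WT replicate 2. Tfrc, the transferrin receptor whose mRNA is stabilised when iron is scarce, was at 18.0, 13.0 and 14.5 CPM in WT and 18.3, 19.9 and 13.7 CPM in Hete. The groups overlapped for both genes. Slc39a8, a metal importer, had a log2 fold change of 0.46 ± 0.14 (SE; edgeR adjusted p = 0.169), and Slc11a2, the iron transporter DMT1, one of 0.24 ± 0.11 (SE; edgeR adjusted p = 0.395). Hpx, the haem carrier hemopexin and itself an acute phase gene, was highest in WT replicate 1 at 10420 CPM, against 4182 to 5964 CPM in the other libraries.

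Of the inflammatory input to hepcidin, 11 of 15 genes were tested, 0 passed the threshold, and the median was −0.01, between −0.24 and 0.07 with each library left out. Il6 had between 0 and 5 counts per library and was not tested. Stat3, the factor that binds the TTCNNNGAA pattern, was at 290, 153 and 195 CPM in WT and 99.9, 178 and 112 CPM in Hete, highest in WT replicate 1 as Hamp was. Its log2 fold change was −0.71 ± 0.30 (SE; edgeR adjusted p = 0.383), which was −0.40 without WT replicate 1. Il6ra, the IL-6 receptor, was at 65.4, 59.8 and 41.3 CPM in WT and 13.7, 46.4 and 30.6 CPM in Hete, with a log2 fold change of −0.88 ± 0.45 (SE; edgeR adjusted p = 0.511), which was −0.52 without Hete replicate 1. Socs3, the feedback inhibitor induced by STAT3, was at 48.1, 14.2 and 21.4 CPM in WT and 4.08, 101 and 11.5 CPM in Hete. It was highest in Hete replicate 2, and its sign changed without that library. For Il22ra1, the IL-22 receptor, the log2 fold change was 0.69 ± 0.49 (SE; edgeR adjusted p = 0.654), 0.28 without Hete replicate 2 and −0.01 without WT replicate 1 and Hete replicate 2 together. For Osmr, the oncostatin M receptor, it was −0.63 ± 0.56 (SE; edgeR adjusted p = 0.739), and its sign rested on WT replicate 1, without which it was 0.06.

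**Figure D4:**
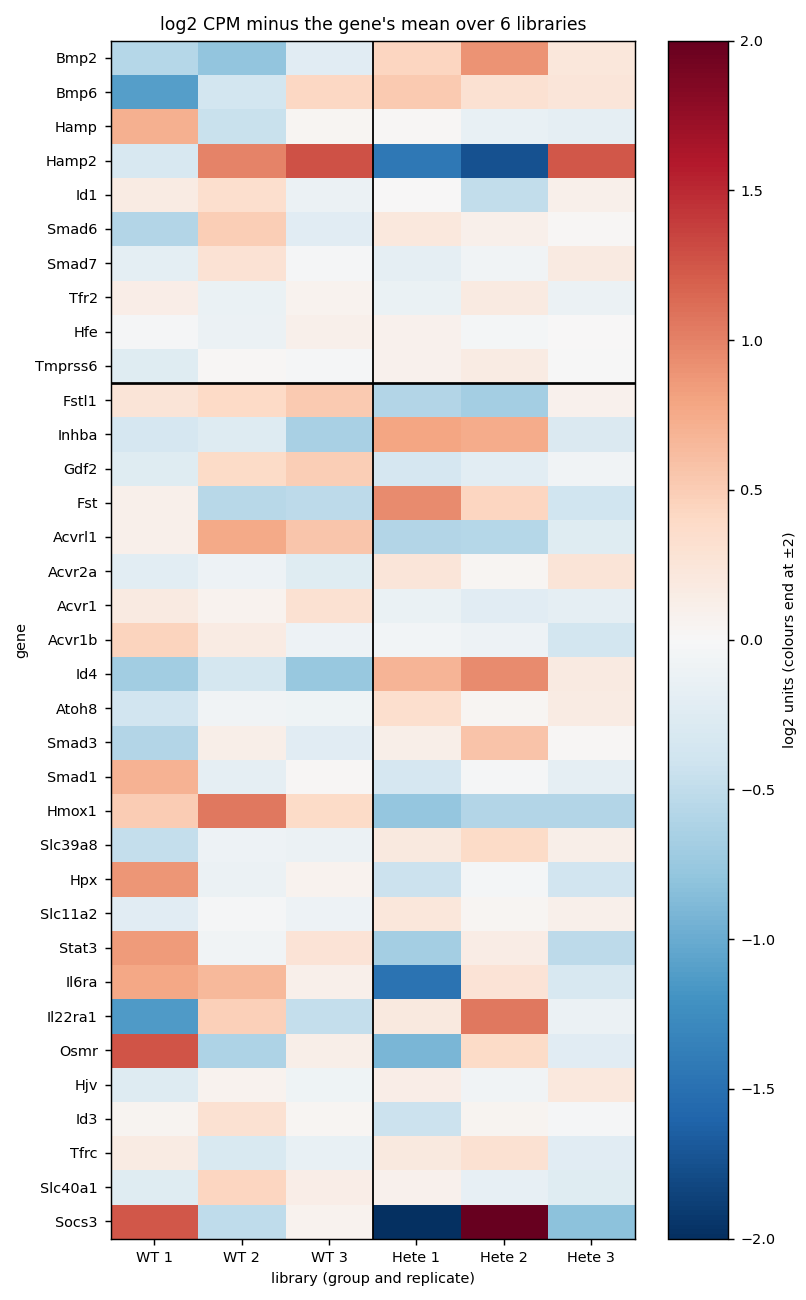
log2 CPM minus each gene's mean over the 6 libraries (colour, in log2 units, ending at ±2), for the 10 members above the horizontal line and the named pathway genes below it, with columns for the libraries and a vertical line between WT and Hete. Bmp2 and Id4 are below their mean in all WT libraries and above it in all Hete libraries, Hmox1 has the opposite pattern, and Hamp2 differs within each group.

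The genes whose pattern was most like that of Bmp2 over the 6 libraries, by the mean absolute difference of log2 CPM centred on each gene's mean, were Shank2 (0.15), Sdr9c7 (0.16), Tek (0.16) and Pcp4l1 (0.16). Tek, the angiopoietin receptor of endothelium and 1 of the 14 sinusoidal markers, was at 6.28, 5.77 and 7.44 CPM in WT and 10.5, 12.8 and 9.29 CPM in Hete. The groups of Tek did not overlap, which is no separate observation because Tek was picked here for its likeness to Bmp2. Its log2 fold change was 0.74 ± 0.19 (SE; edgeR adjusted p = 0.111). For Hamp the nearest genes were Lenep (0.07), Alg12 (0.07), Ube2s (0.09) and Xbp1 (0.09). All were highest in WT replicate 1, as Hamp was. That is likewise no separate observation, because these genes were picked for their likeness to Hamp. Xbp1, a transcription factor of the secretory stress response, stood at 358 CPM there and at 144 to 196 CPM in the other 5 libraries.

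Library totals ran from 16895322 to 17750755 counts. Of 12706 tested genes, 71 passed the edgeR threshold as lower and 3 as higher in Hete, against 452 and 82 with DESeq2 and 190 and 21 in edgeR when low-count genes were not filtered out. The targeted gene Cebpb was at 506, 308 and 340 CPM in WT and 204, 498 and 269 CPM in Hete, which overlapped; hepatocytes also express Cebpb, so whole liver is a poor check of its deletion in Kupffer cells. Clec4f, the source of the driver's promoter, was at 48.6, 38.5 and 5.42 CPM in WT and 4.31, 4.97 and 3.90 CPM in Hete, so WT replicate 3 stood close to the Hete libraries. Hepatocyte markers summed to 97642 to 132570 CPM in WT and 109898 to 131443 CPM in Hete, as fits the labelled tissue.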

How the data were processed

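RNA of mouse liver was sequenced in 6 libraries (3 WT, 3 Hete; groups from the sample titles) after TruSeq stranded mRNA preparation from 500 ng, per the labels' protocols. The deposited table holds raw, unnormalized read counts for each gene symbol, and its 6 columns were all used. Trimmomatic 0.36, HISAT2 2.2.1.0, HTSeq 0.9.1 and build GRCm39 are named, per the submitters' processing notes; for the annotation, strand setting and filters the entry is: not given in the sources used here. Totals lay between 16895322 and 17750755 counts, and 442 of 17119 symbols had none.

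In R 4.3.3, genes were filtered with filterByExpr, scaled by TMM and tested with edgeR 4.0.16 (glmQLFit and glmQLFTest, robust, no covariates), with Benjamini-Hochberg adjustment over all tested genes and a threshold of 0.05. CPM values are TMM-scaled; centred log2 CPM used a prior count of 2. The code was tested on simulated data. Alternatives were RLE and upper-quartile scaling, other low-count filters, a non-robust fit, DESeq2 1.42.0, limma-voom (limma 3.58.1), the replicate number as a block, red blood cell genes left out, each library left out, and, chosen after seeing the data, WT replicate 1 and Hete replicate 2 left out together.

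The members and lists were chosen with earlier results of these data known. Besides the members, the text names up to 4 genes with the smallest unadjusted p in each of 5 pathway lists plus those past the threshold, a few fixed genes (Hjv, Id3, Tfrc, Slc40a1, Socs3, Saa1, Saa2, Lcn2, Cebpb, Clec4f), and the 4 genes most like Bmp2 and Hamp. Erfe, Bmp10, Il6, Txndc5 and single markers (among them Cdh13 and Thbd) were named after their values were seen. Promoters came from RefSeq (GRCm38.p6); Hamp and Hamp2 were aligned with Biopython 1.88.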

Additional observations from a re-analysis of the deposited data

How the results depend on the processing

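Over 16 alternatives Bmp2, Bmp6, Hamp2, Id1 and Tmprss6 kept their sign. Bmp2 alone among the members passed the threshold in any, at a log2 fold change of 1.08 in DESeq2 and 1.09 in edgeR when low-count genes were not filtered out. The sign of 5 members changed when a library was left out, and the log2 fold change then ran from −0.50 to 0.11 for Hamp, −0.041 to 0.524 for Smad6, −0.17 to 0.10 for Smad7, −0.152 to 0.029 for Tfr2 and −0.014 to 0.089 for Hfe. Without WT replicate 1 and Hete replicate 2 together it was 0.13 for Hamp and −0.04 for Smad6. The count of genes past the threshold, 74 as reported, was 50 with RLE and 37 with upper-quartile factors, 211 with no filter, 48 with at least 1 CPM in 3 libraries, 534 with DESeq2, 20 with a non-robust fit, 4 without those 2 libraries together and 0 with limma-voom, where 1686 genes had an unadjusted p under 0.05. It ran from 0 to 122 when each library was left out: 4, 6 and 20 without WT replicates 1, 2 and 3, and 0, 0 and 122 without Hete replicates 1, 2 and 3. Of the tested genes, 1104 without Hete replicate 1 and 1601 without Hete replicate 2 had an unadjusted p under 0.05. The cause of these changes was not tested. In the 5 pathway lists the count, 1 as reported, was 3 with DESeq2 (Acvrl1, Hmox1 and Id4), 0 with limma-voom, 0 without both libraries together, and 0 to 2 when each library was left out. With the replicate block 0 genes passed in all and 0 in the pathway lists, with 1427 at an unadjusted p under 0.05. Same-numbered libraries deviated from their group means with correlations of −0.21, −0.31 and 0.19, and 2 of 6 libraries correlated best with their own number, so the numbers were not read as pairs. Bmp6 rests on 30 to 101 counts per library, and its 95% interval (−0.20 to 1.39) gives the differences these libraries allow.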
